A study of Mus musculus with 8 samples.

Results

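Fos, Zfp36 and Dnajb1 were described in kidney RNA of MRL-lpr mice, which develop lupus and carry the lpr mutation of the death receptor Fas. These 3 genes were taken by symbol from a deposited table of 1931 genes, and all 3 were found. They had been chosen by the size of their difference between the groups in these same libraries, and the whole table holds only genes with an unadjusted p of at most 0.05 for that difference. The difference between the groups is therefore given for them as a description, with no test. There were 4 control mice and 4 mice given propionate (PA), a fatty acid that gut microbes release, which they drank for 6 weeks at 200 mM. Kidneys were taken at 12 weeks of age, and lpr is shared by both groups. The labels name neither the drink of the controls nor the sex or litters of the mice. Each library is labelled as a separate sample, and whether each is from a separate mouse beyond that label is not stated, so the spread between libraries is taken as the spread between mice.

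Fos and Zfp36 are immediate early genes, which growth factors, cytokines and stress switch on within minutes without new protein synthesis. The FOS protein pairs with a JUN protein to form the transcription factor AP-1. Zfp36 encodes tristetraprolin, a zinc finger protein that binds AU-rich elements in messenger RNAs such as that of Tnf and speeds their decay. Dnajb1 encodes an HSP40 protein, which delivers unfolded proteins to HSP70 through its J domain and is induced by heat shock factor HSF1.

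The 250 bases before each RefSeq start (GRCm38.p6) are shown because the genes are known for signal-driven promoters. Capitals mark matches, on either strand, to the short motifs described beneath the sequences. Fos lies on the plus strand, chr12:85473640-85473889, Zfp36 on the minus strand, chr7:28379229-28379478, and Dnajb1 on the plus strand, chr8:83607925-83608174. RefSeq gives Dnajb1 another start, whose window lies downstream of this one, held only a GGGCGG box of the motifs searched and is not shown.
Fos: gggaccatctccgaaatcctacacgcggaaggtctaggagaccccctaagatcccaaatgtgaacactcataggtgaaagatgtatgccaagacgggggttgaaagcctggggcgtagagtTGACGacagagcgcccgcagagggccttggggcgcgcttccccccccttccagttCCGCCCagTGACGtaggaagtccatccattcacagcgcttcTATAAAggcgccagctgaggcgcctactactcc
Zfp36: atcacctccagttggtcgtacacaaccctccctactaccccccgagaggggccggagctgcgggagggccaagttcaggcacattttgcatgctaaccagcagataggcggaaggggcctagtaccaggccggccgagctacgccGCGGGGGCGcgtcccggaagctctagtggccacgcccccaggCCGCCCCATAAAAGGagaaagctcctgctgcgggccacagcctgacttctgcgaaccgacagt
Dnajb1: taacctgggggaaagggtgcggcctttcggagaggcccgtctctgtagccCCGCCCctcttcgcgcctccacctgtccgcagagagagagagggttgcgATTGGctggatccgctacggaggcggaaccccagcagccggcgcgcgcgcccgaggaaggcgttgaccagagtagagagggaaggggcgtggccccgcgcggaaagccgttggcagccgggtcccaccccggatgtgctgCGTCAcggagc

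The Fos window held the half-site TGACG of the cyclic AMP response element at 2 places, the nearer one 66 to 62 bases before the start, and a TATA box, TATAAA, 33 to 28 bases before it. TGACG was found in 17.8% and TATAAA in 12.4% of 32851 RefSeq windows of this length. The Zfp36 window held a CArG box, the core of the serum response element, 58 to 49 bases before the start, and an EGR site, GCGGGGGCG, 105 to 97 bases before it. A CArG box was found in 1.47% and the EGR site in 2.57% of all windows. Neither was in the windows of Fos and Dnajb1, and bases farther upstream were not searched. The CArG match overlaps by 1 base a GGGCGG box, the motif of SP1, which all 3 windows hold and which 32.7% of all windows hold. In the Dnajb1 window a CCAAT box, found in 33.8% of windows, lay 151 to 147 bases before the start, read on the minus strand, and a TGACG half-site 11 to 7 bases before it. Neither GAANNTTC nor TTCNNGAA, the paired units of a heat shock element, was in any of the 3 windows, and 6.69% and 7.17% of all windows held them. The full element TGACGTCA and the ETS core CCGGAAGT were in none of the 3 windows either, and 1.55% and 2.88% of all windows held them. A match is a description of letters, and the motifs were picked with these windows in view.

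The transcripts of Fos and Zfp36 also share a feature that Dnajb1 lacks. In GENCODE M21 (GRCm38), the longest 3′ UTR of Fos (815 bases) held the AU-rich pentamer ATTTA 4 times and that of Zfp36 (774 bases) 3 times, against 0 in the 1834 bases of the longest Dnajb1 one. The pentamer was present in 65.2% of 21024 protein-coding genes, and in 63.8% of the 1657 such genes that are listed. The longer core TATTTAT occurred 2 times in Fos, 3 times in Zfp36 and 0 times in Dnajb1, and 27.6% of all these genes held it. A stretch of 30 bases with the pentamers in capitals is shown for each, since such elements are what the ZFP36 protein binds. The Fos stretch is bases 644 to 673 and the Zfp36 stretch bases 572 to 601 of the 3′ UTR.
Fos 3′ UTR: gtgttttcaATTTATTTAttaagatggatt
Zfp36 3′ UTR: ctttATTTAtgacgactttATTTAttgtat

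Per library, 20005328 to 26711127 reads were assigned to genes, and the listed genes made up 13.4% to 15.1% of them. Levels are given as scaled counts, which are the authors' read counts divided by 1 size factor per library, and as FPKM, reads scaled by gene length and library total. Log2 fold changes are of propionate over control, from edgeR fitted to all 1792 genes that passed its expression filter. Their standard error (SE) was worked back, as the size of the log2 fold change divided by the square root of edgeR's test statistic F. For Fos, Zfp36 and Dnajb1 it is a description, as their difference is. In that fit 1216 genes (67.9%) passed an adjusted p of 0.05, 25.9% of all tested being called higher and 41.9% lower. Of the calls, 38.2% were higher with propionate, and 53.4% were higher when the authors' size factors replaced TMM scaling. By the authors' deposited adjusted p, 157 of 1931 genes (8.13%) passed. Of Fos, Zfp36 and Dnajb1, 3 were called by edgeR and 0 by the deposited values in the authors' deposited table. Nothing is read from either count, since this contrast chose the genes. TMM scaling and the adjustment rest on preselected genes, and the median log2 fold change of the genes tested was 0.11. Every gene tested was listed for its p in this same contrast, which favours passing. The edgeR calls and adjusted p-values of all other genes below are therefore descriptions too. When adjusted over the 16064 genes that fit the authors' adjustment, 6 genes passed in edgeR.

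Fos was the scarcest of the 3. In bulk tissue, fewer cells of a type and less RNA per cell cannot be told apart. The control mice had 47.9, 58.7, 85.2 and 55.9 scaled counts and the propionate mice 42.2, 20.5, 33.2 and 17.8, in the order of their replicate numbers. Every propionate mouse was below every control mouse, and 47.6% of the 1931 listed genes likewise had groups that did not overlap. There was a gap of 5.65 scaled counts between the lowest control and the highest propionate mouse. The group means were 61.9 ± 16.2 and 28.5 ± 11.4 (SD, n = 4), 2.18 times higher in controls, and the log2 fold change was -1.15 ± 0.32 (SE). These values rest on 18 to 83 reads per library. For the lowest mouse, propionate replicate 4, an exact 95% Poisson interval ran from 10.6 to 28.2 scaled counts, and for control replicate 3, the highest, from 67.9 to 106. The intervals cover counting error only, and those of propionate replicate 1 (30.6 to 56.9) and control replicate 1 (35.5 to 63.1), the nearest mice across the groups, overlapped. The coefficient of variation between mice was 26.2% in controls and 39.9% with propionate, where counting alone would give 12.9% and 18.4% at the mean read count.

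**Figure D1:**
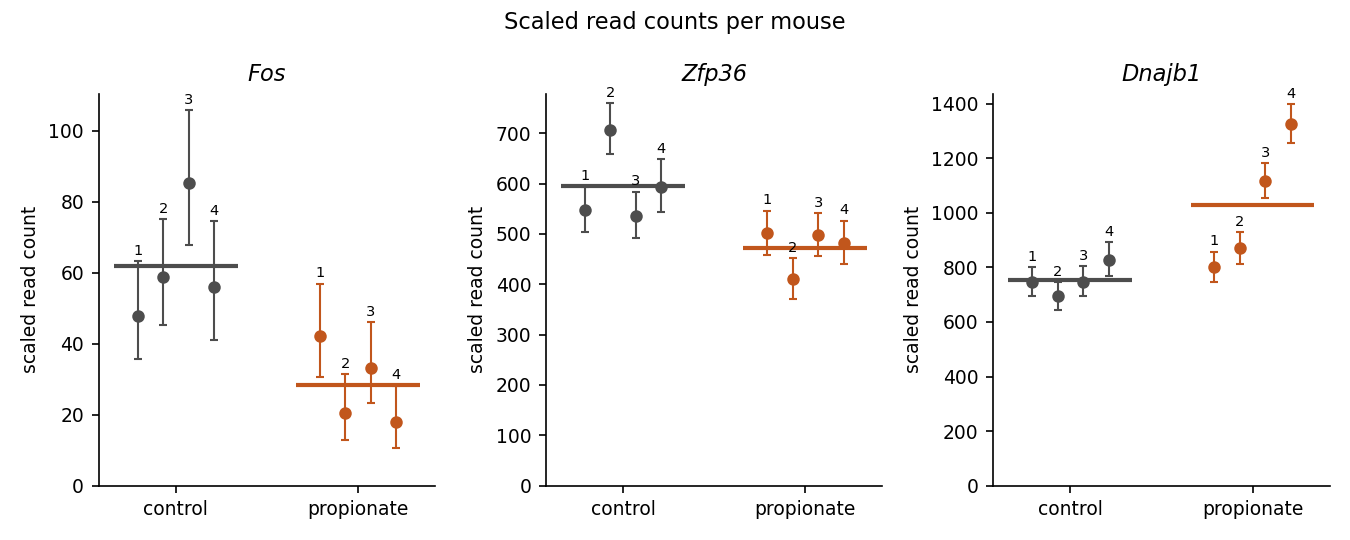
Scaled read counts of Fos, Zfp36 and Dnajb1 in each mouse. Points are mice, numbered by replicate; thin bars are exact 95% Poisson intervals of the reads, thick lines group means (n = 4). The groups do not overlap for Fos and Zfp36, and for Dnajb1 the propionate mice range from 801 to 1326 where controls range from 694 to 829.

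Zfp36 was lower with propionate by a smaller ratio. Control mice had 547, 707, 536 and 594 scaled counts and propionate mice 501, 410, 497 and 482. The groups did not overlap, and 35.2 scaled counts separated the lowest control mouse from the highest propionate mouse. Means were 596 ± 78.3 and 472 ± 42.4 (SD, n = 4), 1.26 times higher in controls, with a log2 fold change of -0.38 ± 0.11 (SE). Control replicate 2 was the highest of all 8 mice, and without it the log2 fold change was -0.28.

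Dnajb1 differed in the opposite direction. Control mice had 746, 694, 748 and 829 scaled counts and propionate mice 801, 870, 1116 and 1326. The groups overlapped, since propionate replicate 1 lay below control replicate 4. Means were 754 ± 55.5 and 1028 ± 241 (SD, n = 4), 1.36 times higher with propionate, with a log2 fold change of 0.40 ± 0.13 (SE). The spread between mice was wider with propionate, a coefficient of variation of 23.4% against 7.36% in controls, and propionate replicates 3 and 4 stood above all other mice. Without propionate replicate 4 the log2 fold change was 0.28, and without propionate replicate 1 it was 0.50.

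The values that chose the genes rank them 203rd (Fos), 338th (Dnajb1) and 462nd (Zfp36) of 1931 by unadjusted p in the authors' deposited table. The deposited log2 fold changes there, propionate over control, are -1.12 for Fos, 0.45 for Dnajb1 and -0.34 for Zfp36. The deposited adjusted p in the authors' deposited table is 0.0743 for Fos, 0.146 for Dnajb1 and 0.184 for Zfp36. The spread between mice differed, with pooled within-group SDs of 0.47 for Fos, 0.16 for Zfp36 and 0.25 for Dnajb1 on the log2(scaled count + 1) scale.

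By deposited FPKM, the order of the levels was the same in all 8 libraries, Dnajb1 above Zfp36 above Fos, but that of Dnajb1 and Zfp36 depends on the gene length used. In controls FPKM was 9.63 ± 0.72 for Dnajb1, 7.03 ± 0.98 for Zfp36 and 1.08 ± 0.27 for Fos (SD, n = 4). With propionate it was 13.1 ± 3.02, 5.56 ± 0.44 and 0.49 ± 0.19. The ratio of Dnajb1 to Zfp36 ran from 1.06 to 1.51 in control libraries and from 1.73 to 2.98 in propionate libraries. In control mice Dnajb1 had 8.94 to 10.6 and Zfp36 6.24 to 8.41 deposited FPKM. Averaged over the 8 libraries, 61.6% of the 1664 listed protein-coding genes had a lower FPKM than Dnajb1, 46.9% a lower one than Zfp36 and 11.7% a lower one than Fos. The gene length behind the FPKM of Zfp36 is 3470 bases, its whole genomic span in the table, where its longest transcript in GENCODE M21 has 2790 bases, so its FPKM is set low by that length. With FPKM rescaled to each gene's longest transcript, an alternative chosen after the data were seen, 7 of 8 libraries kept the order. Control replicate 2 then had more Zfp36 (10.5) than Dnajb1 (9.56), and the control ranges of Zfp36 (7.77 to 10.5) and Dnajb1 (9.56 to 11.4) met. Fos remained lowest in all 8 libraries.

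The table places Fos (ENSMUSG00000021250) on chromosome 12 from 85520664 to 85524047, plus strand, Zfp36 (ENSMUSG00000044786) on chromosome 7 from 28076209 to 28079678, minus strand, and Dnajb1 (ENSMUSG00000005483) on chromosome 8 from 84334822 to 84339282, plus strand. These coordinates are not those of GRCm38, the build of the sequences above. The submitters' notes name mm10, which is GRCm38, so these coordinates differ from the build named. No source used here names another build.

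Whether the 3 transcripts vary together among mice of the same group was tested on deviations of log2(scaled count + 1) from the group mean, from which the difference that chose the genes is removed. None of the 3 pairs passed an exact two-sided permutation test within groups (576 pairings, p-values adjusted over the 3 pairs, smallest possible p 0.00174). For Fos and Zfp36 Pearson's r was 0.20 (permutation p = 0.625, adjusted p = 0.938) and Spearman's rho 0.38 (permutation p = 0.441, adjusted p = 0.661) over 8 libraries. For Fos and Dnajb1 r was -0.47 (permutation p = 0.382, adjusted p = 0.938) and rho -0.33 (permutation p = 0.417, adjusted p = 0.661). For Zfp36 and Dnajb1 r was 0.05 (permutation p = 0.951, adjusted p = 0.951) and rho -0.02 (permutation p = 0.986, adjusted p = 0.986). Without the 2 libraries farthest from the median of the first gene, r was 0.48, -0.13 and 0.01 for these pairs in turn. The control mouse with the most Fos, replicate 3, had the least Zfp36 of its group, and the control mouse with the most Zfp36, replicate 2, had the least Dnajb1. With 8 mice, these p-values do not show that the transcripts vary independently.

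**Figure D2:**
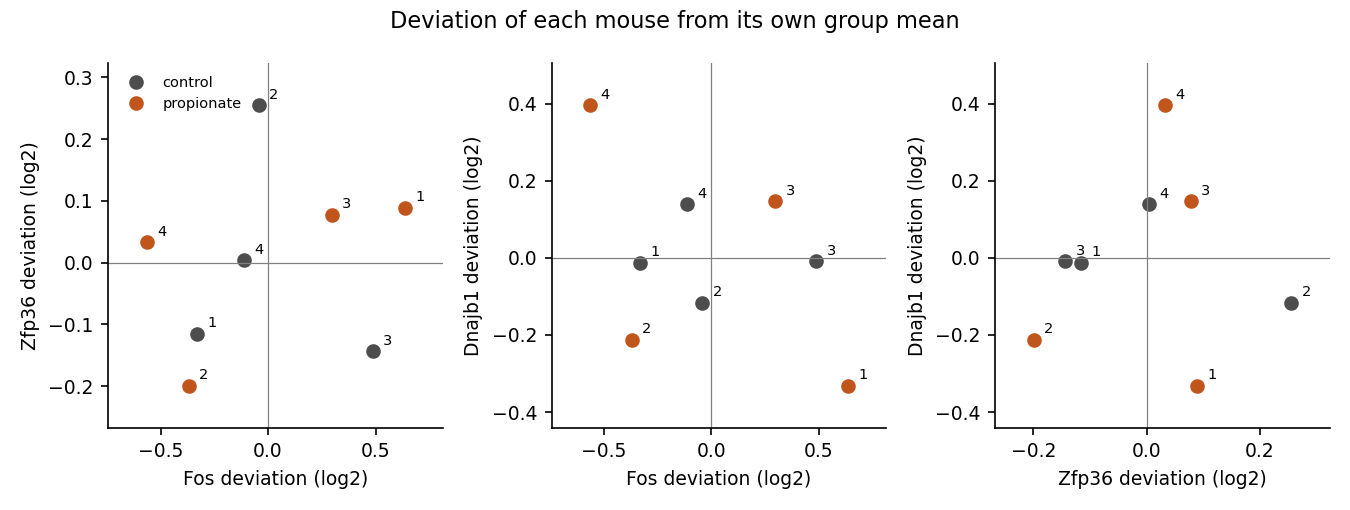
Deviation of each mouse from its own group mean for the 3 pairs of genes, in log2(scaled count + 1), with mice numbered by replicate and coloured by group. No common line is seen; r is 0.20, -0.47 and 0.05 from left to right (n = 8).

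Other immediate early genes in the table were mostly lower with propionate. Of a list of 62 such genes 12 are in the table, and genes outside it are not analysed here. Beside Fos and Zfp36 there were 10, of which 7 were lower and 3 higher, where 46.8% of all genes tested were lower. Their median log2 fold change was -0.32 against 0.11 for all genes tested. By edgeR over the listed genes 6 of the 10 were called lower and 2 higher, where 67.9% of all genes tested were called. By the authors' deposited table, 1 of the 10 fell, Sik1, where 8.13% of listed genes passed. When a trend over gene length and GC content was removed, which took the median of all genes from 0.11 to -0.02, all 10 were lower, and Jund, Ier5l and Srf thereby changed direction. By edgeR 4 of the 10 were then called, all lower, where 22.8% of genes tested were called. The trend was fitted to the listed genes alone, so removing it may also remove part of the difference between the groups. None of these 10 was called by edgeR without control replicate 3, where 8.20% of genes tested were called, or without propionate replicate 4, where 11.4% were.

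Among these, Sik1, a salt-inducible kinase, averaged 2931 ± 452 scaled counts in controls and 2190 ± 235 with propionate (SD, n = 4). Its edgeR log2 fold change was -0.46 ± 0.11 (SE), and the authors' deposited table gives it an adjusted p of 0.0473. Klf10, a zinc finger factor induced by TGF-beta, had one of -0.50 ± 0.13 (edgeR adjusted p = 0.0281), and Nfkbiz, a nuclear regulator of NF-kappaB, one of -0.77 ± 0.27 (edgeR adjusted p = 0.0394). The groups of Sik1, Klf10 and Nfkbiz overlapped. Jun, the usual partner of FOS in AP-1, averaged 822 ± 99.1 scaled counts in controls and 697 ± 77.9 with propionate (SD, n = 4), or -0.28 ± 0.10 on the log2 scale (SE, edgeR adjusted p = 0.0389). Jund, another JUN protein, was higher, at 0.28 ± 0.11 (edgeR adjusted p = 0.0453), so the 2 AP-1 partners in the table differed in opposite directions on this scaling. Egr1, a zinc finger factor of the same early wave, had 130, 188, 163 and 142 scaled counts in control mice and 102, 59.7, 147 and 121 in propionate mice. Its groups overlapped, with a log2 fold change of -0.58 ± 0.24 (SE) that did not pass (edgeR adjusted p = 0.0521).

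Zfp36l1, a paralogue of Zfp36 that binds the same kind of element, was lower by less, at -0.18 ± 0.06 (SE, edgeR adjusted p = 0.0312), with no overlap between its groups. Trib1 was also lower, at -0.36 ± 0.13 (edgeR adjusted p = 0.0428). Srf, the factor that binds the CArG box, was higher at 0.18 ± 0.07 (edgeR adjusted p = 0.0428), and its groups did not overlap. Of the 1931 listed genes, 47.6% had groups that did not overlap. Ier5l did not pass (0.30 ± 0.14, edgeR adjusted p = 0.0646).

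**Figure D3:**
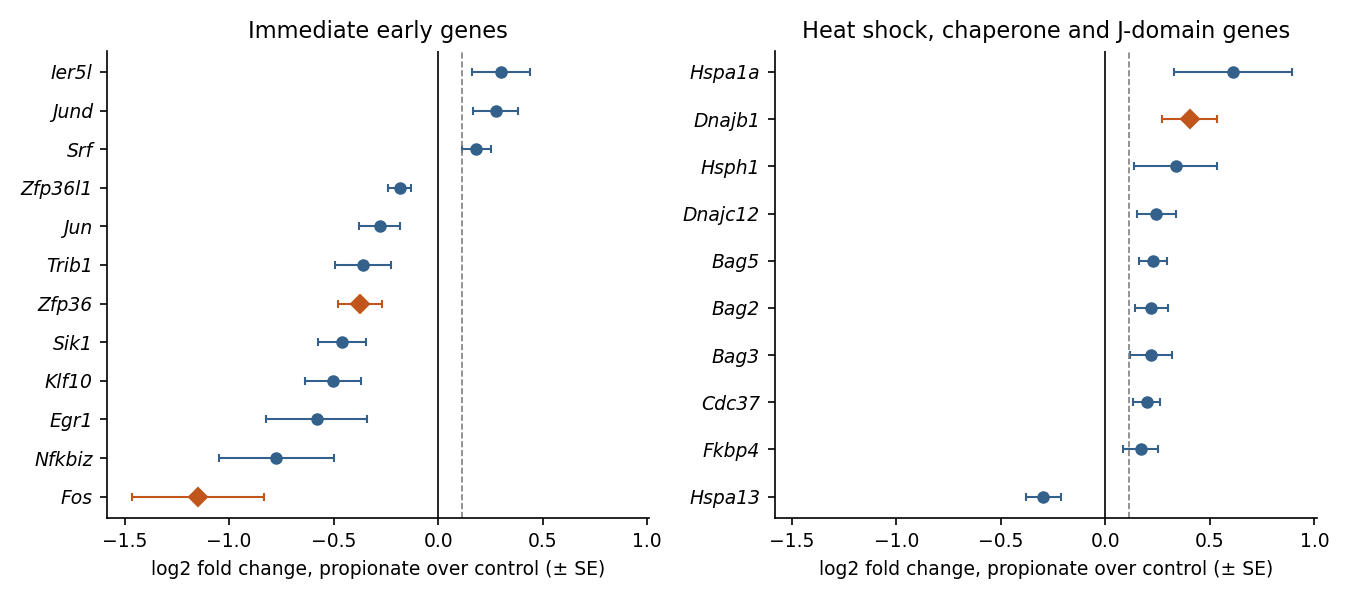
Log2 fold change, propionate over control, with SE bars, of the listed immediate early genes (left, 12) and heat shock, chaperone and J-domain genes (right, 10). Diamonds are Fos, Zfp36 and Dnajb1; the dashed line is the median of all genes tested, 0.11. On the left 9 of 12 lie below 0, and on the right 9 of 10 lie above it; with a length and GC trend removed Jund, Ier5l, Srf and Bag5 change side.

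Of 40 genes of the MAP kinase and SRF pathways that lie upstream, 5 are in the table, Srf among them. The kinase Mapk14 (p38-alpha) was higher at 0.15 ± 0.05 (edgeR adjusted p = 0.0356), as was Map2k2 at 0.15 ± 0.06 (edgeR adjusted p = 0.047). Rps6ka3, a ribosomal S6 kinase, was lower at -0.24 ± 0.08 (edgeR adjusted p = 0.0356), and Crem, a cyclic AMP response factor, did not pass (0.21 ± 0.09, edgeR adjusted p = 0.0629). In this list 4 of 5 genes were called by edgeR, against 67.9% of all genes tested, and 0 passed in the authors' deposited table, against 8.13% of all listed.

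Of 32 transcripts reported as targets of the ZFP36 protein, 5 are in the table, Fos and Zfp36 itself among them, and the other 3 were called lower by edgeR, where 41.9% of all genes tested were called lower. Vegfa, an endothelial growth factor, averaged 2676 ± 123 scaled counts in controls and 2265 ± 148 with propionate (SD, n = 4), with no overlap and a log2 fold change of -0.28 ± 0.07 (SE, edgeR adjusted p = 0.0245). Il1b had 64.2, 40.1, 76.0 and 75.3 scaled counts in controls and 45.2, 30.3, 46.1 and 45.6 with propionate, with overlap between the groups and a log2 fold change of -0.65 ± 0.25 (SE, edgeR adjusted p = 0.045). Nfkbiz, described above, is the remaining gene. By the deposited values none of these passed, since the authors' deposited table has an adjusted p of 0.0634 for Vegfa, 0.384 for Il1b and 0.21 for Nfkbiz. From 27 AP-1 family and target genes, Gclc and Gclm, the subunits of the enzyme that starts glutathione synthesis, are in the table. Gclc fell in the authors' deposited table (adjusted p = 0.0337; edgeR log2 fold change -0.28 ± 0.05, SE), and Gclm had an edgeR log2 fold change of -0.15 ± 0.05 (SE, edgeR adjusted p = 0.0354). The groups of both did not overlap, as was so for 47.6% of the 1931 listed genes. By the deposited adjusted p 8.13% of listed genes passed, and by edgeR 41.9% of genes tested were called lower.

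Chaperone genes in the table were mostly higher with propionate, as Dnajb1 was. Of 107 heat shock, chaperone and J-domain genes 10 are in the table. Beside Dnajb1, 8 were higher and 1 lower, where 53.2% of all genes tested were higher. Their median log2 fold change was 0.22, against 0.11 for all genes tested. By edgeR 4 were called higher and 1 lower of these 9, where 67.9% of all genes tested were called, and 0 passed in the authors' deposited table. With the length and GC trend removed 7 were higher and 2 lower, Bag5 having changed direction. By edgeR 1 of these 9 was then called, where 22.8% of genes tested were. The log2 fold changes of Fkbp4 (0.017), Bag3 (0.040), Bag2 (0.090), Bag5 (-0.034) and Hspa13 (-0.002) were then small. Those of Cdc37 (0.19) and Hspa1a (0.39) were also smaller than before, and those of Dnajc12 (0.38) and Hsph1 (0.51) were larger. The edgeR calls of this list came to 0 without control replicate 3 and without propionate replicate 3 or 4. Of all genes tested, 8.20%, 10.9% and 11.4% were called in these settings in turn.

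The genes called higher were Cdc37, a co-chaperone that brings kinases to HSP90 (0.20 ± 0.06, SE, edgeR adjusted p = 0.0354), the HSP70 co-chaperones Bag5 (0.23 ± 0.07, edgeR adjusted p = 0.0321) and Bag2 (0.22 ± 0.08, edgeR adjusted p = 0.0408), and the J-domain gene Dnajc12 (0.24 ± 0.09, edgeR adjusted p = 0.0449). With Hspa13, 4 of the 9 had groups that did not overlap (Cdc37, Bag5, Bag2 and Hspa13), near the 47.6% of all listed genes. Hspa13, an HSP70-related protein of microsomes, was called lower (-0.30 ± 0.08, edgeR adjusted p = 0.0301). Hspa1a, the stress-inducible HSP70, had 235, 181, 173 and 431 scaled counts in control mice and 505, 304, 338 and 441 in propionate mice, so that control replicate 4 lay within the propionate range. Its log2 fold change of 0.61 ± 0.28 (SE) did not pass (edgeR adjusted p = 0.065), and Hspa1a has a near-identical copy, Hspa1b, with which reads may have been shared. Hsph1, an HSP110 protein that recharges HSP70, did not pass (0.34 ± 0.20, edgeR adjusted p = 0.124), nor did Bag3 (0.22 ± 0.10, edgeR adjusted p = 0.062) or Fkbp4 (0.17 ± 0.08, edgeR adjusted p = 0.0734).

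Among mice of the same group, the chaperone genes differed in how closely they followed Dnajb1. Pearson's r of the within-group deviations, given as a description over 8 libraries that share depth and scaling, was 0.97 with Cdc37 and 0.92 with Fkbp4. It was 0.72 with Bag5, 0.68 with Bag3 and 0.54 with Bag2, then 0.22 with Hspa1a, 0.21 with Hsph1, 0.18 with Dnajc12 and -0.11 with Hspa13. Of the 1533 listed genes compared with Dnajb1 below, 99.6% had a lower r with it than Cdc37 and 97.8% than Fkbp4. This share was 82.5% for Bag5, 80.3% for Bag3 and 68.8% for Bag2, so many listed genes followed Dnajb1 as closely as these. For Hspa1a it was 48.9%, for Hsph1 47.9%, for Dnajc12 46.6% and for Hspa13 35.4%. Hspa1a and Hsph1 had an r of 0.92 with each other. Propionate replicate 1 had the least Dnajb1 of its group and the most Hspa1a and Hsph1. Hspa1a, Hsph1, Cdc37 and Fkbp4 were singled out after their values were seen, and the differences between these values of r were not tested.

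**Figure D4:**
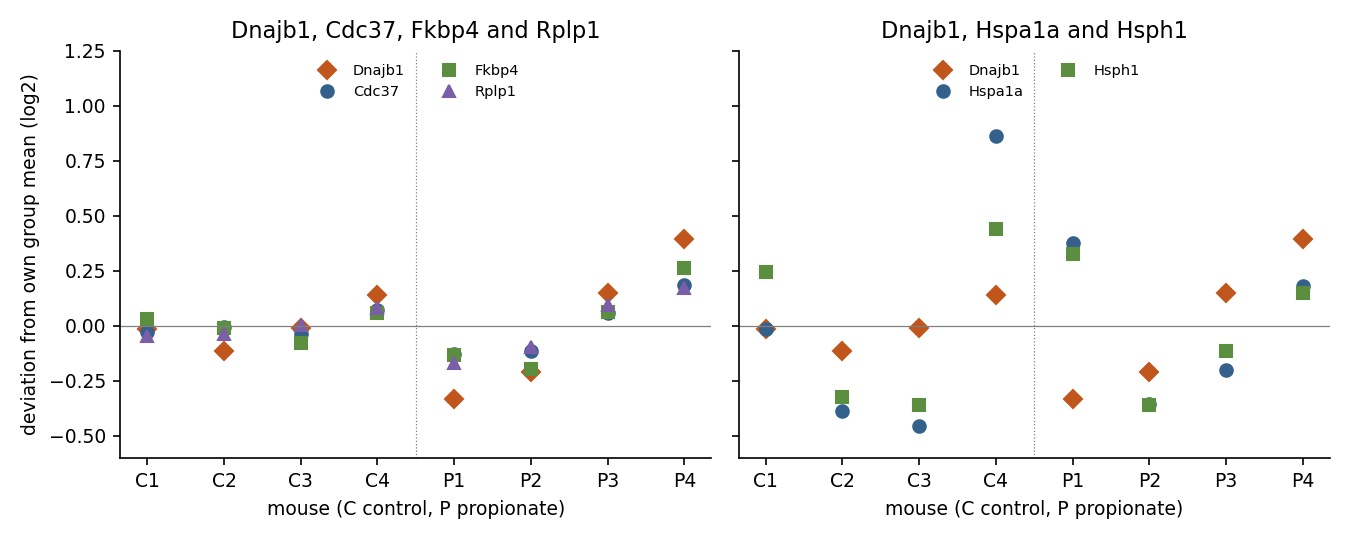
Deviation of each mouse from its own group mean in log2(scaled count + 1), for Dnajb1 with Cdc37, Fkbp4 and Rplp1 (left) and for Dnajb1 with Hspa1a and Hsph1 (right). On the left the 4 genes are low in P1 and P2 and high in P3 and P4, with Dnajb1 moving the most in these mice; on the right Hspa1a and Hsph1 are high in C4 and P1, where Dnajb1 is 0.14 above and 0.33 below its group mean.

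Among the 1533 listed protein-coding genes that averaged 50 scaled counts or more, those most like Dnajb1 by the same within-group r were Ccdc85b (0.99), the ribosomal stalk protein gene Rplp1 (0.98) and Rpp25l (0.98). Those most like Fos were the death ligand gene Tnfsf10 (0.96), Spats2l (0.94) and the transporter gene Slc22a26 (0.88). Those most like Zfp36 were the renin gene Ren1 (0.90), the focal adhesion gene Pxn (0.88) and the retinol receptor gene Stra6 (0.87). These are the highest of 1533 values of r for each gene, and no test was made. Of the immediate early genes, Egr1 (0.71) and Jun (0.66) had the highest r with Zfp36, and with Fos it was Nfkbiz (0.60).

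Some markers of immune cells were lower with propionate, as Fos and Zfp36 were. Of 18 markers of macrophages, dendritic cells and monocytes 5 are in the table (Mertk, Cd68, Mrc1, Itgam and Adgre4), all 5 lower with propionate and 3 of them called lower by edgeR (Mertk, Mrc1 and Adgre4), where 41.9% of all genes tested were. Their summed level was 1436 to 1933 scaled counts in controls and 1097 to 1388 with propionate, without overlap, and none was at 0 in any library. These 5 were listed for their p in this same contrast, which favours a sum without overlap. Markers outside the table did not enter it, and 47.6% of the 1931 listed genes had groups that did not overlap. Mertk made up most of the sum, at 974.6 to 1125 and 825 to 924 scaled counts, and did not overlap on its own, nor did Adgre4, while Cd68, Mrc1 and Itgam overlapped. Itgam and Adgre4 are named outside the rule for named genes, after their values were seen. Cd68 was 365, 164, 354 and 208 scaled counts in controls and 225, 97.8, 242 and 105 with propionate, so within the propionate group replicates 1 and 3 were the higher mice for Cd68 as for Fos. In controls the highest mouse was replicate 3 for Fos and replicate 1 for Cd68, and replicate 1 had the least Fos of the controls. Of 14 neutrophil markers Itgb2l is in the table and was lower, at 53.5 to 81.1 scaled counts in controls and 10.9 to 27.5 with propionate. Among 23 proximal tubule markers 11 are in the table, 7 higher and 4 lower (1 and 4 called by edgeR). Their summed levels of 212932 to 244652 and 219376 to 249011 overlap, led by Slc34a1, Lrp2 and Acsm2. Of all genes tested, 25.9% were called higher and 41.9% lower, the background for these and the next calls. For the loop of Henle, distal tubule and collecting duct 5 of 18 are in the table, 4 higher and 1 lower (1 and 1 called), with sums of 39339 to 40425 in controls and 30446 to 40497 with propionate. For glomerulus, endothelium and mural cells it is 1 of 19, Ren1, at 1443 to 2825 and 2483 to 3191, and for T and B cells 0 of 18. The part of these cell types in the levels of Fos, Zfp36 and Dnajb1 was not tested.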

How the data were processed

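Kidney RNA of 8 mice was sequenced as paired reads. The authors deposited, per the file headers, whole-number read counts per gene, a scaled signal (these counts divided by 1 size factor per library) with its group means, FPKM, gene length, log2 fold changes, and p-values with and without adjustment. The submitters' processing notes name DESeq2 and the build mm10 (GRCm38), which the gene coordinates in the deposited table do not follow. No aligner, counter or strand setting is given in the sources used here. Among 1931 genes, the largest unadjusted p is 0.05 after rounding, and the deposited adjusted p-values fit an adjustment over 16064 genes.

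Each library's total was worked back from its counts, FPKM and the gene lengths. The quasi-likelihood test of edgeR 4.0.16 (R 4.3.3) was run on counts with these totals, TMM and the default filter, 4 libraries a group, no covariate, with Benjamini-Hochberg adjustment over 1792 genes. It was tested on simulated data. Alternatives were other scalings, DESeq2 1.42.0, no filter, a length and GC trend (1913 genes with GC content), a replicate block and each library left out. Covariation used exact permutation within groups. Sequences are RefSeq's (GRCm38.p6) and GENCODE M21's.

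The 3 genes, the lists and the rule for named genes were chosen with earlier results of these data known. That rule takes every listed gene of a pathway list with up to 12 in the table, up to 3 by level from cell type lists, and the 3 genes most like each of the 3. Same-numbered mice did not deviate together in every pair (r = 0.26, 0.31, 0.022 and 0.22 across 1799 genes). Control replicates 2 and 4 were most like the propionate mouse of the same number. Control replicates 1 and 3 were most like propionate replicates 3 and 1. Numbers were taken as names, and whether same-numbered mice share anything was not tested further.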

Additional observations from a re-analysis of the deposited data

Results flagged for a closer look

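In 60 groups of 4 mice (30 genes, scaled counts), 3 held a mouse whose gap to the nearest other mouse was too large a share of the group's range by Dixon's 95% critical value. Chance flags about 1 in 20 groups. None was in a group of Fos, Zfp36 or Dnajb1. Klf10 had 357 scaled counts in propionate replicate 3 where the other 3 mice had 237 to 252. Dnajc12 had 2630 in control replicate 2 where the others had 1950 to 2056. Il1b had 30.3 in propionate replicate 2 where the others had 45.2 to 46.1.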

How the results depend on the processing

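The log2 fold changes of Fos, Zfp36 and Dnajb1 kept their direction and moved by less than 1 within-group SD under all 15 alternatives. With 1 library left out they ran from -1.41 to -0.96, -0.43 to -0.28 and 0.28 to 0.50. The genes were chosen by this difference in these same libraries, so the kept direction is a description and no support for it. Counts of calls were less stable. The 1216 edgeR calls over the listed genes became 406 with the length and GC trend removed, 6 when adjusted over 16064 genes and 148 to 1262 with 1 library left out. For the 10 other immediate early genes, 8 calls became 4, 0 and 0 to 8 in the same order. For the 9 other chaperone genes, 5 calls became 1, 0 and 0 to 6. The smaller count over 16064 genes follows from the larger adjustment; the cause of the others was not tested. With the replicate number as a block (replicate block) these counts were 1273, 7 and 7, and the log2 fold changes -1.18, -0.37 and 0.38. Within-group r of Zfp36 and Dnajb1, near 0, changed sign with TMM-scaled CPM (-0.10) and ranged from -0.26 to 0.33 with 1 library left out. That of Fos and Zfp36 ranged from -0.020 to 0.52, changing sign without propionate replicate 2, and that of Fos and Dnajb1 from -0.73 to -0.07. No pair passed under any of these alternatives. Depth limits Fos, with 18 to 83 reads per library. With FPKM by longest transcript, chosen after the data were seen, the order Dnajb1, Zfp36, Fos held in 7 of 8 libraries.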
